A study of Mus musculus with 30 samples.

Results

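DNA damage signalling and repair genes were followed through mouse osteoclast cultures of different age, genotype and stage. The 37 genes are a list of named genes, out of 45706 genes in the tables, and all 37 had values above 0 in each of the 30 libraries. For differences, 36 of them were tested, and Rad51b, with a mean of 0.9576 TPM (a share of all transcripts in the library, corrected for gene length), fell under the minimum mean of 1 TPM, whereas Rad51c, at 1.236 TPM, was just inside it. The design text gives the question as whether osteoclasts on bone slices differ in expression with the age of the mouse or with loss of Terc, the gene of the RNA template of telomerase. Macrophages from C57BL/6J bone marrow were cultured on bone slices with the cytokines that turn macrophages into osteoclasts, RANKL at 100 ng/ml and M-CSF at 25 ng/ml.

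The 10 groups of 3 libraries share that strain and that culture. Wild-type libraries called large-cell here, taken once big multinucleated cells were present, came from mice of 1, 6 and 20 months, and wild-type 2-day libraries from mice of 6 and 20 months. Terc-/- large-cell libraries came from mice of 1 and 6 months. A further 3 groups, also labelled large-cell, carry an extra word in their titles whose meaning is not stated: gaiwei for wild type at 1 month, and 519 for Terc-/- at 1 and at 6 months. They are called the marked groups below. The labels leave it unsaid if the libraries within a group came from different mice. Each p-value therefore rests on the spread between libraries within groups, pooled over all 10 groups, which may be technical.

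Cells meet DNA damage with a division of labour. The kinases ATM and ATR and their effectors CHK1 and CHK2 signal it, and the MRE11-RAD50-NBN complex, 53BP1 and the histone variant H2AX mark and process broken ends. Homologous recombination (BRCA1, BRCA2, PALB2, RAD52, RAD54L and others), the Fanconi anaemia proteins and the RecQ helicases BLM and WRN repair breaks and crosslinks mostly in S and G2 phase with a sister chromatid as template. End joining by Ku, DNA-PKcs, XRCC4 and ligase IV seals breaks throughout the cycle, and base, nucleotide and mismatch repair remove altered bases. Osteoclasts form when dividing macrophage precursors leave the cell cycle and fuse.

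The libraries differed in ways that touch these genes. The summed level of 8 osteoclast markers (among them Acp5, Ctsk and Mmp9) was 307 to 760 TPM in 2-day, 4564 to 27850 in unmarked large-cell and only 653 to 2142 in marked libraries, so the marked libraries sat low for their large-cell label. One library, replicate 2 of wild-type large-cell cultures at 6 months, correlated with its own group at a mean r of 0.9086, against 0.9323 to 0.9906 for the other libraries. The factor that puts the typical gene of a library on a common scale ran from 1.24 to 1.28 in 2-day, 0.685 to 1.2 in unmarked large-cell and 0.658 to 0.867 in marked libraries. Xist was at 46.6 to 84.08 TPM and the Y-linked Eif2s3y at 0 in the unmarked 1-month wild-type libraries, the reverse of the other 27 libraries. Terc was listed at 0 in all 12 Terc-/- libraries and also in 15 of 18 wild-type ones. It therefore checks few labels in this poly(A)-selected RNA.

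The repair genes were expressed at low to moderate levels. Over the 30 libraries the highest means belonged to Ercc1, the partner of the nuclease that cuts 5′ of bulky lesions, at 37.48 TPM, to Parp1, the sensor of single-strand breaks, at 31.88, and to H2afx, the gene of H2AX, at 23.48. As deposited, the 37 genes summed to 453.2 to 590.3 TPM in the 6 2-day libraries, 274.5 to 442.5 in the 15 unmarked large-cell libraries and 197.5 to 283.5 in the 9 marked ones. Part of that order belongs to the typical gene: after scaling, the sums were 365.8 to 459.4, 318.9 to 400.8 and 294.5 to 345.5, so that the unmarked large-cell range overlapped both others. On scaled values 17 of the 36 tested members had their highest group mean in a 2-day group, against 28.2% of all tested genes, and 15 had their lowest in a marked group, against 32.4%. The 20-month 2-day group had the highest mean of the 10 groups for 13 of the 36, against 8.82% of all tested genes, and as deposited for 21, against 19.1%.

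**Figure D1:**
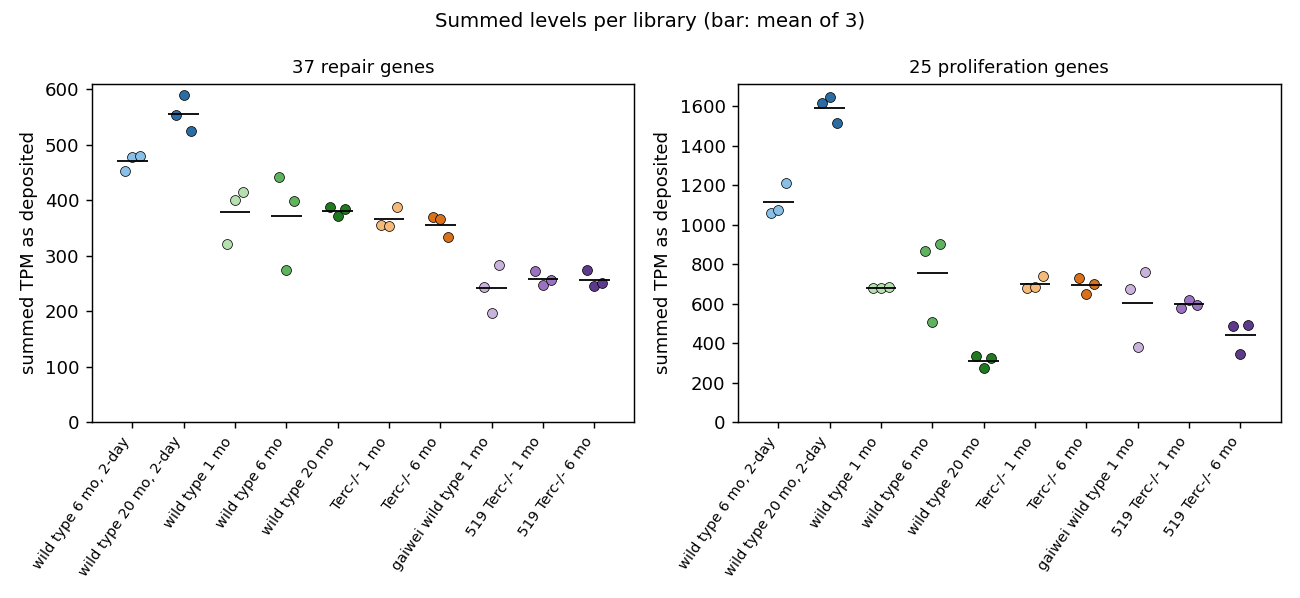
Summed TPM as deposited of the 37 repair genes (left) and of 25 proliferation genes (right) in each library (points, 3 per group) with the group mean (bar). Repair sums run from 453.2 to 590.3 in 2-day and from 197.5 to 283.5 in marked libraries, and the proliferation sums of 20-month large-cell libraries, 271.5 to 333.6, lie below those of all other groups.

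**Figure D2:**
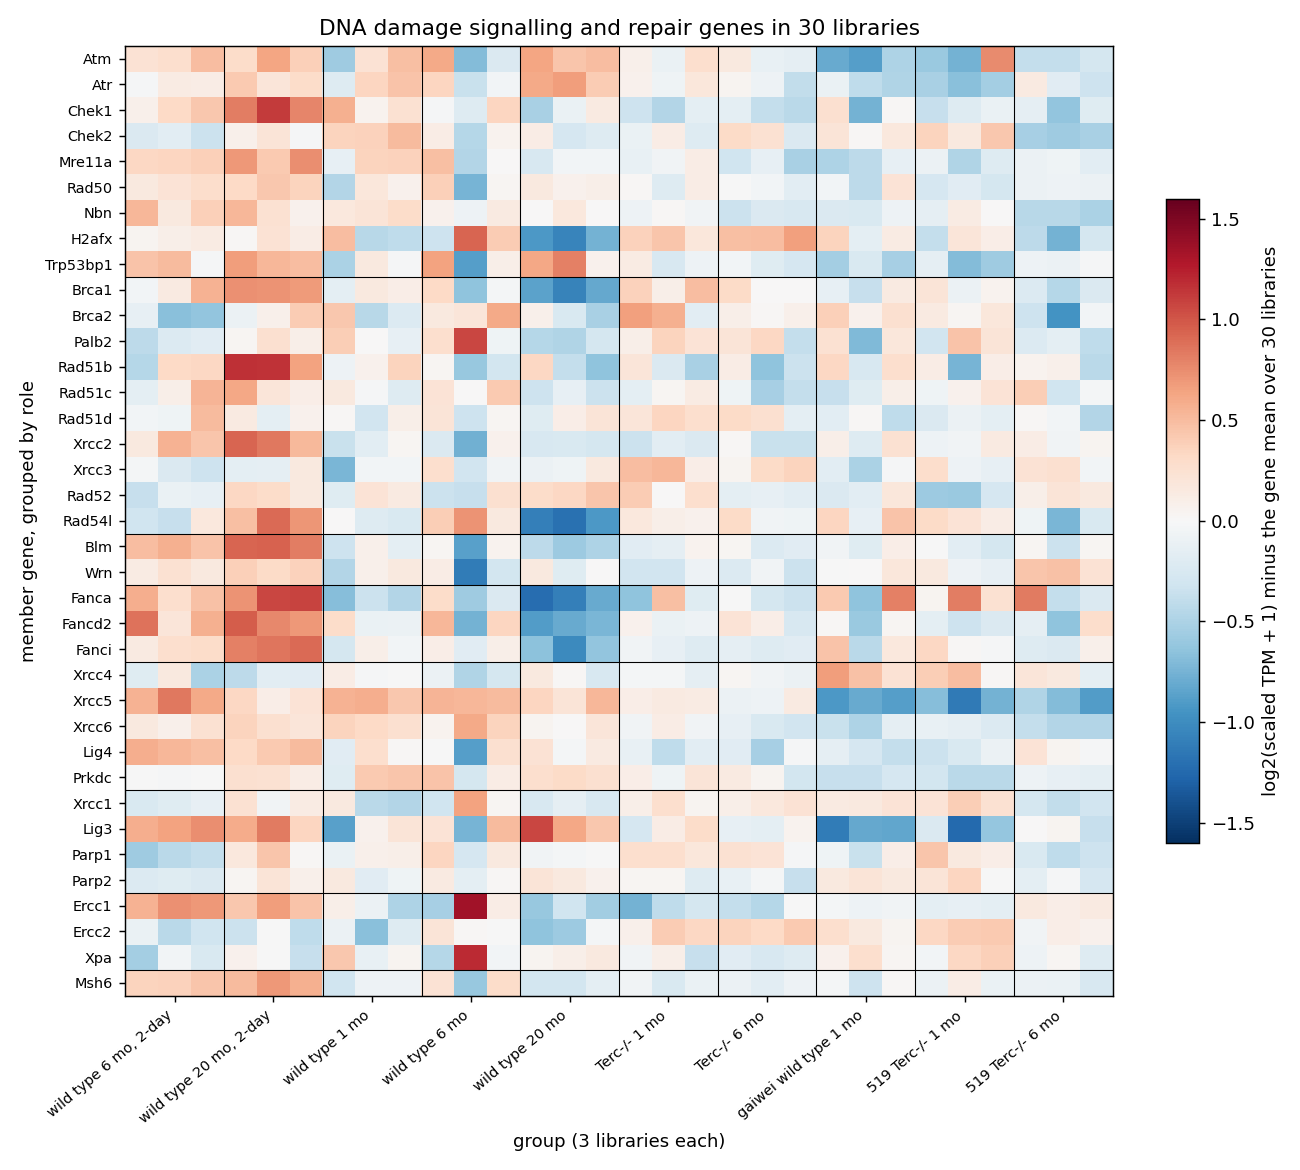
Each row is a repair gene, in order of role, and each column a library; colour gives log2(scaled TPM + 1) minus the mean of that gene over 30 libraries. The Fanconi genes, Brca1, Rad54l and Blm are high in 20-month 2-day and low in 20-month large-cell libraries, Xrcc5 is low in the marked groups, and replicate 2 of 6-month wild type departs from its neighbours in many rows.

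In cultures from 20-month wild-type mice, a part of the repair genes was lower in large-cell than in 2-day libraries. Of the 36 genes tested, 13 were lower and 0 higher (limma on log2(scaled TPM + 1), Benjamini-Hochberg adjusted p under 0.05 over all 12614 genes tested). Among all genes 18.4% were called lower and 18% higher, 36.5% in all, and the median change was -0.28 for the members and -0.01 for all genes. By role, 3 of 3 Fanconi genes, 4 of 9 recombination genes, 3 of 9 signalling genes, 1 of 2 RecQ helicases, 1 of 3 nucleotide excision genes and the mismatch repair gene Msh6 fell. None of 5 end joining genes and none of 4 genes of single-strand break repair was called in this fit. With a variance of its own for each group, an alternative chosen after seeing the data, 20 members and 56.8% of all genes were called. Which genes count as called or not called here and below thus depended on how the spread was estimated. In bulk RNA, fewer cells of a type and less RNA per cell cannot be told apart.

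Fanci, whose protein forms with FANCD2 the clamp that is loaded on DNA at a crosslink, lies at chr7:79391929-79450264 (GRCm38, plus strand). Its level was 5.082, 5.375 and 5.495 TPM in the 2-day and 0.9765, 0.4728 and 1.017 TPM in the large-cell libraries. Every 2-day library was above every large-cell library. The change was -1.62 ± 0.17 (log2, SE; adjusted p = 5.85e-08), on a scale whose added 1 TPM understates the fold of genes this low. Its partner Fancd2 had a mean of 5.587 TPM in 2-day and 0.8869 TPM in large-cell libraries and fell by 1.62 ± 0.26 (adjusted p = 2.884e-05). Fanca, of the core complex that ubiquitinates the clamp, had the largest change of all members here, from a mean of 11.93 to 1.901 TPM (-2.00 ± 0.33, adjusted p = 3.995e-05).

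Rad54l, a motor protein that acts in strand invasion, lies at chr4:116094264-116123690 (minus strand). It stood at 10.69, 14.98 and 12.57 TPM in 2-day and 2.557, 2.249 and 3.107 TPM in large-cell libraries, again with no overlap. Its change was -1.76 ± 0.19 (adjusted p = 7.257e-08). Brca1, the ubiquitin ligase that commits a break to recombination, lies at chr11:101488764-101551955 (minus strand) and stood at 8.842, 8.82 and 8.372 TPM against 1.949, 1.474 and 2.056 TPM. The 2-day levels of Brca1 lay close together and far above the large-cell levels, a change of -1.63 ± 0.19 (adjusted p = 4.047e-07). On the opposite strand Lrrc41 overlaps 15.4% of the exon bases of Rad54l, Polg 16% of those of Fanci and Zfp276 10.5% of those of Fanca, and reads of such pairs cannot be told apart unless strand was used, which is not stated. Of the partners of Brca1, Palb2 (-0.53 ± 0.26, adjusted p = 0.112) and Brca2 (-0.36 ± 0.25, adjusted p = 0.277) did not pass the test. Xrcc2, a recombination gene, fell by 1.02 ± 0.18 and Rad51c by 0.58 ± 0.20 (adjusted p = 6.164e-05 and 0.02434). Rad51c was the 1 of the 13 genes whose call was not kept under every alternative. Rad51d (0.02 ± 0.18) and Xrcc3 (0.05 ± 0.19) and the annealing protein Rad52 (0.10 ± 0.15) were not called.

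The promoters of the 3 genes with the smallest p in this comparison are shown because these genes moved together; Msh6 was added after its motifs were seen. They are RefSeq windows (GRCm38.p6) from 250 bases before to 50 after the annotated start, 5′ to 3′ on the strand of the gene, with matches to the searched motifs in capitals. They lie at chr7:79392088-79392387 (Fanci, plus), chr4:116123640-116123939 (Rad54l, minus), chr11:101551906-101552205 (Brca1, minus) and chr17:87974800-87975099 (Msh6, plus).
Fanci: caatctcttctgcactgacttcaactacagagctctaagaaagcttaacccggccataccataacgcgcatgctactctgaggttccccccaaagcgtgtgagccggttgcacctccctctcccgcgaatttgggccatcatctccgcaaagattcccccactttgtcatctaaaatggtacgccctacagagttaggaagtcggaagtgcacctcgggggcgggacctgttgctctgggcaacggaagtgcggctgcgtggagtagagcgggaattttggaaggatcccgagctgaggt
Rad54l: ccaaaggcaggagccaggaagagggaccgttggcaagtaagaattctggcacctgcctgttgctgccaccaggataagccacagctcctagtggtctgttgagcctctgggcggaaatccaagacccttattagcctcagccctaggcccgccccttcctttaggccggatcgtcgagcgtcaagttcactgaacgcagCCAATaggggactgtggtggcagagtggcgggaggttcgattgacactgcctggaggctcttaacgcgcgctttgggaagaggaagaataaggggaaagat
Brca1: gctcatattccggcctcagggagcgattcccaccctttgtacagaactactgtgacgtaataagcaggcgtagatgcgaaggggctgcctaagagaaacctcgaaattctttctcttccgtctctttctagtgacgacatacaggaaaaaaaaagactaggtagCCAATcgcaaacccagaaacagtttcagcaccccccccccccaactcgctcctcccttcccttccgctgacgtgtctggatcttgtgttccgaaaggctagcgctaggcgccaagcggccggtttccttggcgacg
Msh6: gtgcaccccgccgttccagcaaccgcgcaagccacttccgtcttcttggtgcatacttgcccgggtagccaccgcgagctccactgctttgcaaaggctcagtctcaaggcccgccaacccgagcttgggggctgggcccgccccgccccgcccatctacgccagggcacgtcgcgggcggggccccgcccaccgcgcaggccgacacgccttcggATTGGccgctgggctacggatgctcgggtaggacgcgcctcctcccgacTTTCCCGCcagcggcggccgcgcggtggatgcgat
The CCAAT box, read on both strands as CCAAT or ATTGG, was present in Rad54l, Brca1 and Msh6 and not in this window of Fanci. It was in 16 of the 29 members with a promoter in the table and in 41.1% of 27025 genes. Among those 29, it was in 6 of the 10 called lower and in 10 of the other 19. E2F words (TTTCCCGC, TTTGGCGC, TTTCGCGC and TTTGCCGC, both strands) were in 5 of 29 members (Brca2, Chek2, Msh6, Rad51c and Xrcc6) and in 2.6% of all genes. The word TTTGAA or TTCGAA of the cell cycle homology region (both strands) was in 2 of 29 members and 21.7% of genes, and the palindromic NRF1 motif in 1 of 29, Lig4, and in 1.07% of genes. These matches describe the letters of a window and not binding. Rad51d, the tested member with the largest p in this comparison, had no entry in the table.

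Damage signalling genes split. Chek1, the kinase that holds S-phase cells at the checkpoint, stood at 11.73, 14.84 and 11.17 TPM in 2-day and 3.593, 5.034 and 6.494 TPM in large-cell libraries, a change of -1.07 ± 0.22 (adjusted p = 0.0003978). H2afx (chr9:44334694-44336077, plus strand) stood at 28.39, 33.66 and 30.31 TPM against 13.36, 11.61 and 15.25 TPM. The large-cell libraries held less than any 2-day library for both genes, and H2afx changed by -1.03 ± 0.24 (adjusted p = 0.001505). Mre11a, the nuclease that trims broken ends, fell by 0.74 ± 0.18 (adjusted p = 0.001972). Its complex partners Rad50 (-0.26 ± 0.20) and Nbn (-0.22 ± 0.11) did not pass, nor did the kinases Atm (0.09 ± 0.31), Atr (0.25 ± 0.18) and Chek2 (-0.21 ± 0.15).

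Blm, the helicase that dissolves crossed-over DNA, stood at 9.04, 9.287 and 8.164 TPM in 2-day and 2.613, 2.117 and 2.439 TPM in large-cell libraries. It was lower in every large-cell library, by 1.40 ± 0.18 (adjusted p = 1.31e-06), while the other RecQ helicase Wrn, at -0.36 ± 0.20 (adjusted p = 0.177), was not called. Msh6, which recognises mismatches left by replication, fell by 0.84 ± 0.16 from 20.85 to 10.32 TPM (adjusted p = 0.0001551). Ercc1 stood at 60.01, 71.58 and 60.05 TPM against 26.59, 31.69 and 28.02 TPM, a change of -1.01 ± 0.26 (adjusted p = 0.003712). The groups did not overlap as deposited for any of the 13 genes, nor for 21 of the 36 members in all, where 63.9% of all genes had such groups.

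The end joining genes were near their 2-day level at 20 months: Xrcc5 changed by 0.14 ± 0.13, Xrcc6 by -0.19 ± 0.11, Xrcc4 by 0.24 ± 0.16, Prkdc, the gene of DNA-PKcs, by 0.07 ± 0.16 and Lig4 by -0.30 ± 0.19, all with adjusted p of 0.194 or more. In single-strand break repair, Parp1 changed by -0.25 ± 0.14, Parp2 by 0.03 ± 0.11, the scaffold Xrcc1 by -0.33 ± 0.17 and its ligase Lig3 by 0.12 ± 0.29. These values do not show that the genes were equal: the 95% interval for Xrcc5 ran from -0.12 to 0.40.

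Other repair genes, from a list of 106 of which 104 were tested, gave 43 lower and 5 higher at 20 months. The smallest p-values belonged to Rad51ap1, a recombination gene (-2.45 ± 0.17, from 19.55 to 2.347 TPM), Rpa1, which coats single-stranded DNA (-1.10 ± 0.11), Eme1, a subunit of a junction nuclease (-1.98 ± 0.19), and Fen1, the flap nuclease of replication and base excision (-1.54 ± 0.15). All 25 genes of a proliferation list (Mki67, Top2a, Mcm2 and others) were lower too, with a median change of -2.33 and sums of 1515 to 1645 TPM in 2-day and 271.5 to 333.6 TPM in large-cell libraries. Of 7 stromal genes tested, 6 were higher in large-cell libraries, and the 8-gene stromal sum was 3416 to 4355 against 672.9 to 896.1 TPM. Markers of blood cells differed as well. The sum of 6 B-cell markers was 82.96 to 106.4 TPM in 2-day and 3.165 to 9.342 TPM in large-cell libraries, with both tested genes lower. The sum of 7 neutrophil markers was 149.2 to 211.1 against 2.994 to 17.93 TPM, with 2 of 3 tested genes lower. Elane and Mpo were at 0 in both groups, and S100a9, Ngp and Ly6g in the large-cell group. All 8 osteoclast markers were higher in large-cell libraries, and of 8 macrophage markers 3 were higher and 3 lower. The part of these lists in the fall of the repair genes was not tested.

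**Figure D3:**
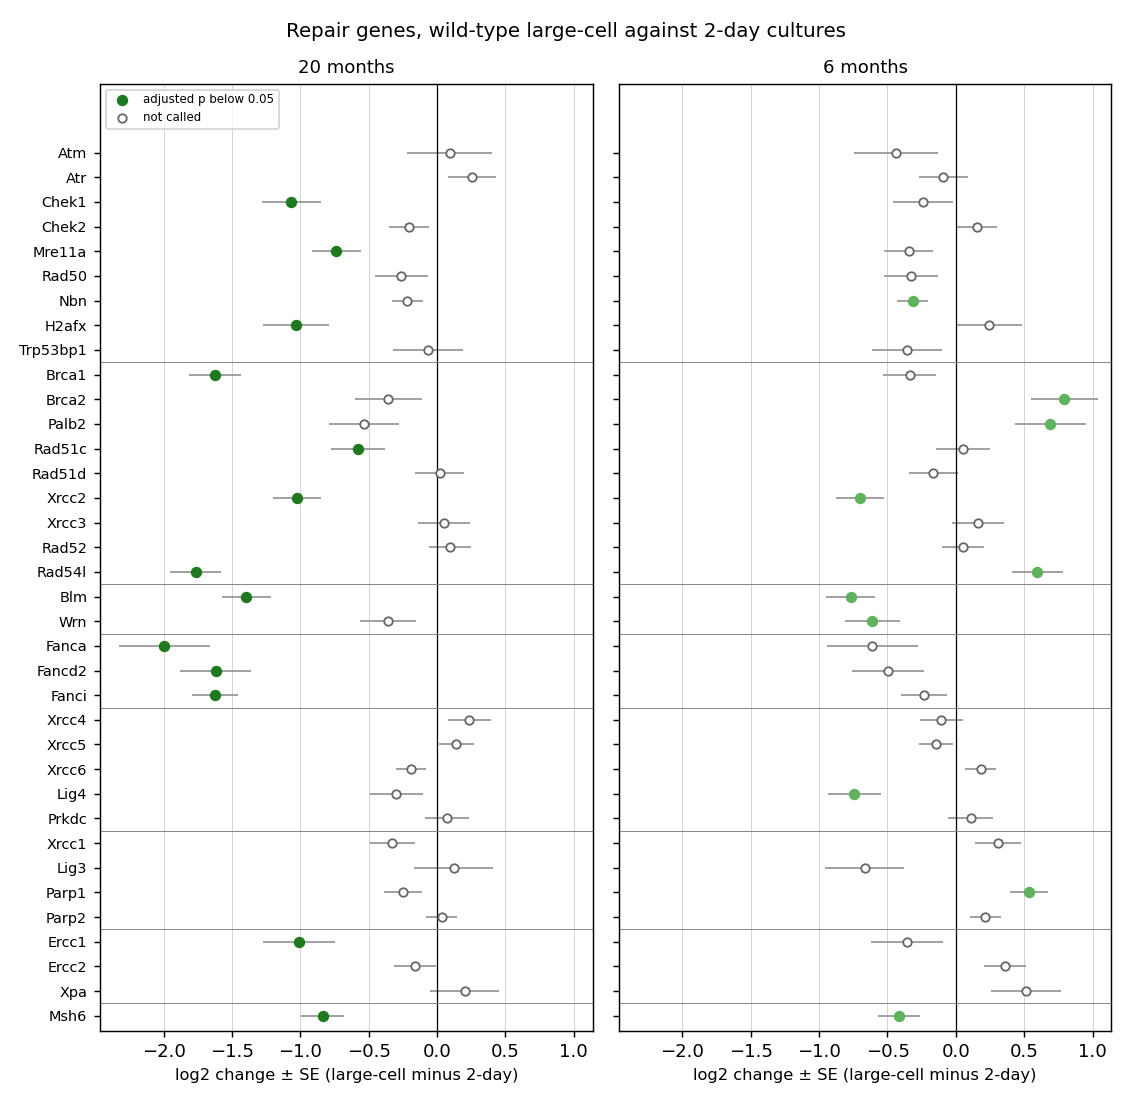
Log2 change ± SE (large-cell minus 2-day) of the 36 tested repair genes in wild-type cultures at 20 months (left) and 6 months (right), in order of role; filled points passed an adjusted p of 0.05. At 20 months the 13 filled points all lie left of 0, and at 6 months 6 lie left and 4 right of it.

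At 6 months the same comparison was mixed: 6 members were lower and 4 higher in large-cell libraries, where 26.4% of all genes were lower and 23.8% higher, 50.2% in all. Lower were the helicases Blm (-0.77 ± 0.18, adjusted p = 0.001276) and Wrn (-0.61 ± 0.20, adjusted p = 0.01656), Xrcc2 (-0.70 ± 0.18), the ligase Lig4 (-0.74 ± 0.19), Nbn (-0.31 ± 0.11) and Msh6 (-0.42 ± 0.16). Blm stood at 6.177, 6.668 and 6.05 TPM in 2-day and 4.038, 0.9101 and 3.634 TPM in large-cell libraries. Even its highest large-cell library was below the 2-day ones.

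The 4 higher genes were Parp1 (0.54 ± 0.14, adjusted p = 0.002963), Brca2 (0.79 ± 0.25), Rad54l (0.59 ± 0.19, adjusted p = 0.01108) and Palb2, which bridges BRCA1 and BRCA2 (0.69 ± 0.26). Their groups overlapped as deposited: Rad54l was at 5.437, 5.287 and 8.237 TPM in 2-day and 9.483, 6.905 and 6.889 TPM in large-cell libraries. With TPM as deposited, not scaled, 12 members were lower and 0 higher, where 55.1% of all genes were called. The median change of all genes then shifted by -0.33. The 3 Fanconi genes, lower at 20 months, were not called at 6 months, with Fanci at -0.23 ± 0.17, Fancd2 at -0.50 ± 0.26 and Fanca at -0.61 ± 0.33.

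Replicate 2 of the large-cell group weighs on these values. As deposited it was the lowest of its 3 libraries for 31 of 37 members, and for 14 the lowest of all 30. Its typical gene was low as well, with a scaling factor of 0.685 against 1.204 and 1.058 in its group. The share of all genes with such ranks was not counted. Without replicate 2, 7 members were called, 3 higher and 4 lower, with 41.1% of all genes, and 5 of the original 10 stayed. Without replicate 1, 22 were called, as were 59.4% of all genes. With a variance of its own for each group, an alternative chosen after seeing the data, 1 member and 20.1% of all genes were called, and with only the 2 groups in the fit 0 members and 15.4%. Of the other repair genes 11 were higher and 28 lower, among the latter the cohesin-like Smc5 (-1.10 ± 0.17) and Smc6 (-0.86 ± 0.15), and Fancm, a Fanconi translocase (-0.89 ± 0.16). The proliferation list gave 8 lower and 1 higher of 25.

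The change from 2-day to large-cell cultures differed between the ages for 9 members, each more negative at 20 months, where 12.5% of all genes differed in that direction and 12.7% in the other, 25.1% in all. Rad54l differed most, by -2.36 ± 0.26 (adjusted p = 1.263e-06), since its change was 0.59 at 6 and -1.76 at 20 months. Fanci differed by -1.39 ± 0.24 (adjusted p = 0.0001746) and Brca1 by -1.29 ± 0.27 (adjusted p = 0.001352). H2afx, with a change of 0.24 ± 0.24 at 6 months, differed by -1.27 ± 0.34 (adjusted p = 0.008288). The other 5 were Parp1, Palb2, Brca2, Fancd2 and Fanca, with differences from -1.38 to -0.78. All 25 proliferation genes and 26 of 104 other repair genes also differed in this direction, and 7 of the latter in the opposite one. Markers of other cells moved with age and stage too. The stromal sum rose from 672.9 to 896.1 TPM in 2-day to 3416 to 4355 in large-cell libraries at 20 months, and at 6 months it was 1682 to 2048 and 646.4 to 1130. Of 7 stromal genes 5 differed in the direction opposite to that of the 9 members. The B-cell sum, given above for 20 months, was 2.343 to 6.514 TPM in 2-day and 7.425 to 10.75 TPM in large-cell libraries at 6 months. Both tested B-cell genes, 2 of 3 neutrophil, 3 of 8 macrophage and 5 of 8 osteoclast genes differed in the direction of the members. What part these lists had was not tested. Rad54l, Fanci, Brca1 and H2afx stayed called under every alternative, among them leaving out replicate 2 of the 6-month large-cell group. A variance for each group left 4 members called in all, with 13.6% of all genes.

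In 2-day wild-type libraries 6 members were higher and 1 lower at 20 than at 6 months, where 8.42% of all genes were higher and 9.13% lower, 17.6% in all. Parp1 stood at 43.99, 53.92 and 38.85 TPM at 20 months and 25.09, 27.89 and 28.9 TPM at 6 months, with no overlap, a change of 0.68 ± 0.14 (adjusted p = 0.001513). Rad54l stood at 10.69, 14.98 and 12.57 TPM against 5.437, 5.287 and 8.237 TPM, also apart, a change of 0.87 ± 0.19 (adjusted p = 0.002106). Fanci (0.62 ± 0.17), Chek1 (0.63 ± 0.22), Rad52 (0.46 ± 0.15) and Parp2, the second sensor of strand breaks (0.32 ± 0.11), were higher with adjusted p from 0.0131 to 0.04823. The Ku subunit gene Xrcc5 was lower (-0.45 ± 0.13, adjusted p = 0.01521), with 9.114, 7.672 and 8.207 TPM at 20 and 10.54, 13.25 and 11.12 TPM at 6 months. Without replicate 3 at 20 months 3 members were called, as on TPM as deposited, where Parp1 missed the threshold (adjusted p = 0.0506), when 10% and 13.6% of all genes were. With a variance for each group 15 were, with 40.4% of all genes. Of the proliferation list 12 genes were higher and 0 lower at 20 months, and of the stromal list 5 of 7 lower. The B-cell sum was 82.96 to 106.4 TPM at 20 and 2.343 to 6.514 TPM at 6 months, with both tested genes higher. The macrophage sum was 33370 to 38330 against 19930 to 22710 TPM, with 4 of 8 genes higher, and 5 of 8 osteoclast genes and 1 of 3 neutrophil genes were higher as well; the part of all these lists was not tested.

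In large-cell cultures of 20-month mice Brca1, Rad54l and the 3 Fanconi genes had the lowest mean TPM of all 10 groups. Against 6 months 8 members were lower and 2 higher at 20 months, where 15.1% of all genes were lower and 12.6% higher, 27.8% in all. Against 1 month 6 were lower and 1 higher, where 12.6% of all genes were lower and 9.54% higher, 22.1% in all. Both comparisons use the 20-month large-cell libraries that also enter the 20-month comparison with 2-day cultures, so they do not stand independent of it. Rad54l stood at 5.285, 5.606 and 5.683 TPM at 1 month, 9.483, 6.905 and 6.889 at 6 months and 2.557, 2.249 and 3.107 at 20 months. The old libraries were below all young ones: Rad54l changed by -1.49 ± 0.19 against 6 months (adjusted p = 5.271e-06) and by -0.92 ± 0.19 against 1 month (adjusted p = 0.0008235).

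H2afx stood at 28.94, 18.49 and 19.75 TPM at 1 month and 20.82, 29.34 and 31.28 TPM at 6 months, all above the 11.61 to 15.25 TPM of 20 months. It changed by -1.24 ± 0.24 against 6 months (adjusted p = 0.0007877) and -0.79 ± 0.24 against 1 month (adjusted p = 0.02041). Brca1 changed by -0.80 ± 0.19 against 6 months and -0.95 ± 0.19 against 1 month, Fanci by -0.78 ± 0.17 and -0.69 ± 0.17, and Fancd2 by -0.85 ± 0.26 and -0.84 ± 0.26. Lower only in the comparison with 6 months were Palb2, Ercc2 (the helicase of the excision complex) and Ercc1, and only in that with 1 month Chek2 (-0.53 ± 0.15). That these calls differ between the comparisons was not tested. The calls of Palb2, Ercc2 and Ercc1 held in 7, 7 and 6 of 12 alternatives. For Palb2 (4.914 TPM) and Ercc1 (61.01 TPM) the outlying replicate 2 at 6 months was the highest of its group. Some members were called higher at 20 months. Against 6 months these were Atr, the kinase that senses stalled forks (0.58 ± 0.18), with 7.793, 7.864 and 6.659 TPM at 20 and 6.385, 1.96 and 4.008 TPM at 6 months, and Rad52 (0.51 ± 0.15). Neither was called higher when replicate 2 at 6 months was left out. Against 1 month it was Lig3, the ligase of XRCC1 (0.91 ± 0.29), with 24.52, 17.07 and 15.45 TPM at 20 and 4.222, 11.36 and 13.08 TPM at 1 month. Rffl, on the opposite strand, overlaps 25.1% of the exon bases of Lig3, so that reads of the pair may be mixed here and in the other comparisons. The 1-month group holds the unmarked libraries with the reversed Xist and Y-linked pattern, so that age and sex pattern cannot be told apart in a comparison with it.

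Proliferation genes fell in the same comparisons, 24 of 25 against 6 months and 22 of 25 against 1 month, and stromal genes rose, 6 of 7 and 3 of 7, as did 2 and 3 of 8 osteoclast genes; their part was not tested. The comparison with 6 months rests on the pooled spread: with a variance for each group 0 of the 10 genes stayed called, and with only the 2 groups in the fit 1 did, with 1.97% and 1.26% of all genes called. Without replicate 2 at 6 months 9 members were lower and 0 higher, and without replicate 1, 9 lower and 7 higher, with 16.3% and 50.8% of all genes called. Against 1 month, 3 members were called without 20-month replicate 3 and 4 on TPM as deposited, with 15.8% and 18.4% of all genes. Between 6 and 1 month in wild type, 1 member was lower, Chek2 (-0.51 ± 0.15, adjusted p = 0.03039), where 5.27% of all genes were lower and 4.01% higher, 9.28% in all. Chek2 stood at 24.57, 9.2 and 20.73 TPM at 6 and 22.33, 28.55 and 32.66 TPM at 1 month, overlapping. The call was lost with deposited TPM (adjusted p = 0.07756), and without 6-month replicate 1, 7 members and 34.5% of all genes were called. Age and sex pattern cannot be told apart here either.

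**Figure D4:**
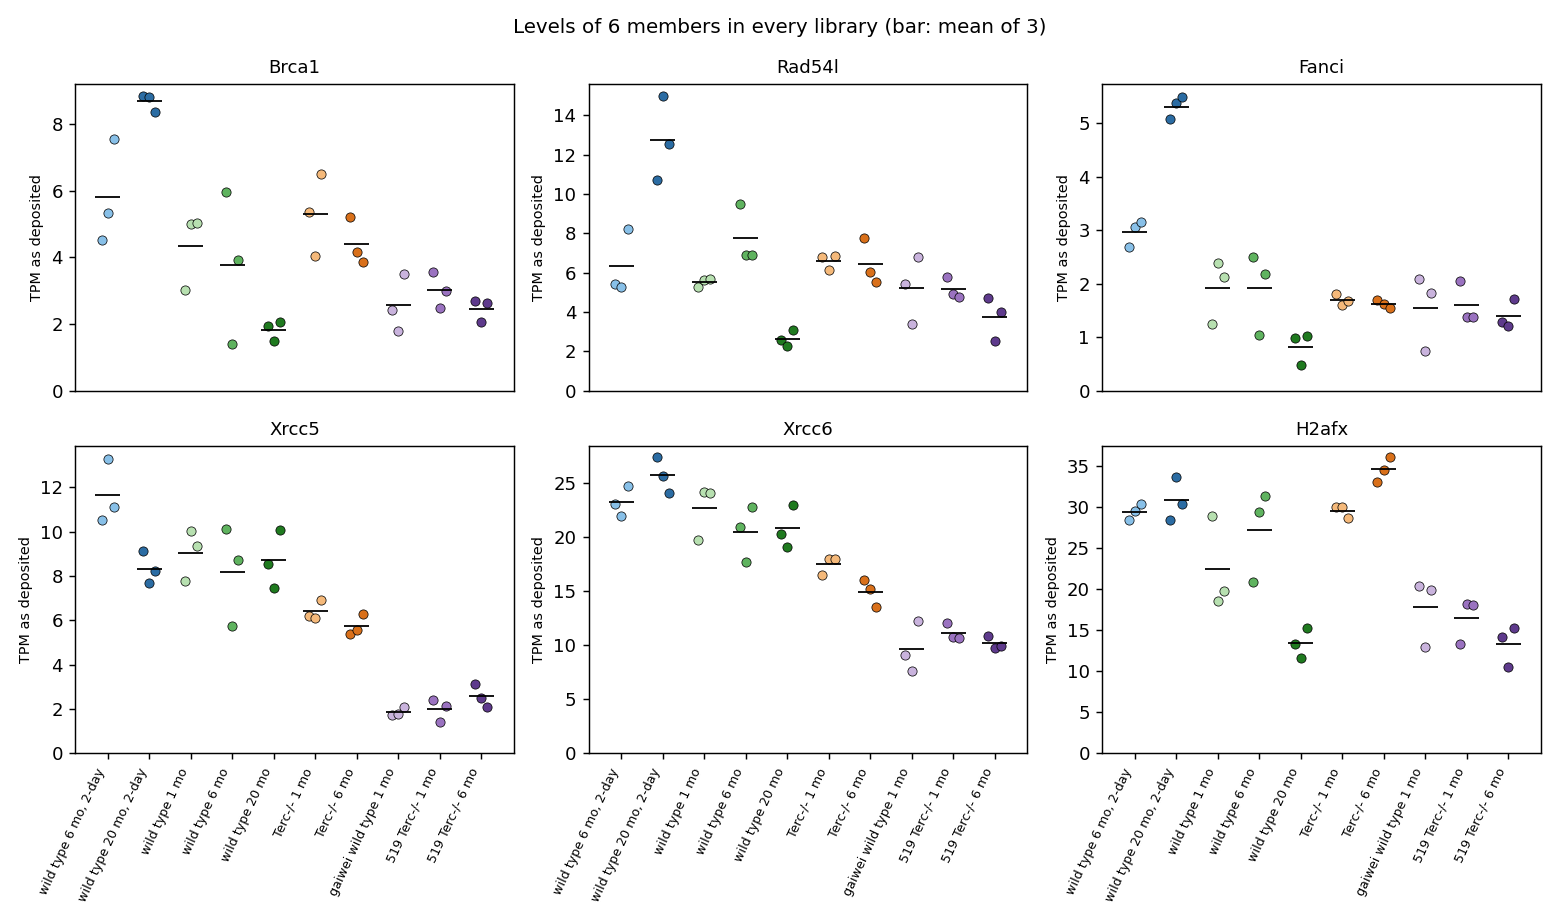
TPM as deposited of 6 repair genes in every library (points, 3 per group, bar at the mean), with 2-day groups left, unmarked large-cell groups in the middle and marked groups right. The group means of Brca1, Rad54l and Fanci are highest in 20-month 2-day and lowest in 20-month large-cell libraries, though single libraries of other groups lie within or below the range of the latter, and Xrcc5 lies at 1.4 to 3.141 TPM in the marked and 5.384 to 13.25 TPM in the unmarked libraries.

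Between Terc-/- and wild type few repair genes differed in the unmarked cultures, among them both Ku genes, which were lower in Terc-/- at 1 and at 6 months. Xrcc5 (chr1:72307421-72394952, plus strand) and Xrcc6 (chr15:81987835-82040085, plus strand) encode the subunits of the ring that grips broken ends and is also found at telomeres. At 1 month 2 members were higher and 4 lower in Terc-/- than in wild-type libraries, where 15.8% of all genes were higher and 15.1% lower, 30.9% in all. At 6 months 0 were higher and 4 lower, where 15.3% of all genes were higher and 13.5% lower, 28.8% in all. The Ku genes were the 2 members called lower at both ages, 5.56% of the 36, as were 6.87% of all tested genes, so the share is near that of all genes. Xrcc6 stood at 19.71, 24.16 and 24.01 TPM in wild type and 16.5, 17.92 and 17.94 TPM in Terc-/- at 1 month, and at 20.88, 17.66 and 22.72 against 16.01, 15.14 and 13.48 TPM at 6 months. All Terc-/- libraries were below all wild-type libraries of their age. As deposited the groups did not overlap for 9 of 36 members at 1 month and 3 at 6 months, and for 40.5% and 24.6% of all genes.

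Xrcc6 changed by -0.30 ± 0.11 at 1 month (adjusted p = 0.04025) and -0.56 ± 0.11 at 6 months (adjusted p = 0.0005593). Xrcc5 stood at 7.778, 10.03 and 9.335 TPM in wild type and 6.194, 6.096 and 6.913 in Terc-/- at 1 month, and at 10.11, 5.721 and 8.699 against 5.384, 5.567 and 6.271 TPM at 6 months. The groups were apart at 1 month and overlapped at 6 months through replicate 2. Its change was -0.39 ± 0.13 (adjusted p = 0.02112) and -0.54 ± 0.13 (adjusted p = 0.002769). At 6 months neither call held with a variance for each group (adjusted p = 0.1146 for Xrcc6 and 0.3644 for Xrcc5) or with only the 2 groups in the fit (0.2314 and 0.2006). At 1 month the same alternatives gave 0.06146 and 0.08617 for Xrcc6, and 0.1134 and 0.05126 for Xrcc5. On TPM as deposited only Xrcc6 at 6 months kept its call (0.02113), with 0.07607 for Xrcc5 there and 0.05645 and 0.06185 for Xrcc6 and Xrcc5 at 1 month. At 1 month, 1 member was called without Terc-/- replicate 1; at 6 months, 6 were without wild-type replicate 2 and 2 without wild-type replicate 4. The shares of all genes were then 23.2%, 31.3% and 26.6%. The other end joining genes were not called, with Prkdc at -0.14 ± 0.16 and -0.13 ± 0.16 and Lig4 at -0.27 ± 0.19 and -0.03 ± 0.19.

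At 1 month Terc-/- libraries also had less of the checkpoint kinases Chek1 (-0.61 ± 0.22, adjusted p = 0.03639) and Chek2 (-0.48 ± 0.15, adjusted p = 0.0147). Higher were Ercc2 (0.59 ± 0.15, adjusted p = 0.004974), with 13.22, 16.01 and 17.37 TPM against 10.27, 8.354 and 12.37 TPM, and Xrcc3, a recombination gene (0.65 ± 0.19, adjusted p = 0.01147). Ercc2 was above every wild-type library, but 24.6% of its exon bases overlap an antisense transcript and 17.8% Klc3. Reads of these cannot be told apart unless strand was used, which is not stated. At 6 months the other lower genes were Nbn (-0.32 ± 0.11, adjusted p = 0.03484) and Rad51c (-0.54 ± 0.20, adjusted p = 0.04375), both with overlapping groups. H2afx was at its highest in 6-month Terc-/-, with 33.05, 34.49 and 36.09 TPM, all above the wild-type libraries as deposited, with a change of 0.21 ± 0.24 on the common scale that did not pass.

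Beside these calls, other repair genes were 7 higher and 9 lower at 1 month and 2 higher and 14 lower at 6 months, of 104. The stromal sum was 577 to 2677 TPM in wild type and 109.1 to 203 TPM in Terc-/- at 1 month, and 5 of 7 stromal genes were lower; the sum at 6 months was 646.4 to 1130 against 268.6 to 918.5 TPM, and 4 of 7 were lower. Xist and the Y-linked genes also separate the genotypes at 1 month, so genotype and sex pattern cannot be told apart there. The macrophage sum was 39970 to 44180 TPM in Terc-/- and 24820 to 30470 in wild type at 1 month, and 37330 to 44680 against 19870 to 28670 TPM at 6 months, with 5 of 8 genes higher at each age and 1 lower at 1 month. The neutrophil sum at 6 months was 94.04 to 202.7 against 17.68 to 65.45 TPM, with 2 of 3 tested genes higher. The part of these lists was not tested. A difference of the genotype effect between the ages was called for 0 members, which does not show that the effects were equal. Of all genes 2.65% were higher and 0.856% lower, 3.5% in all. An unadjusted p under 0.05 was reached by 2 members, Chek2 (0.68 ± 0.21, adjusted p = 0.06671) and Rad54l (-0.62 ± 0.26, adjusted p = 0.2193). This contrast includes the 1-month groups, so the sex pattern enters it too. Within unmarked Terc-/-, 0 members were called between 6 and 1 month (2.92% of all genes were higher and 1.09% lower, 4% in all). Again 2 had an unadjusted p under 0.05, Rad52 (-0.38 ± 0.15) and Nbn (-0.24 ± 0.11).

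**Figure D5:**
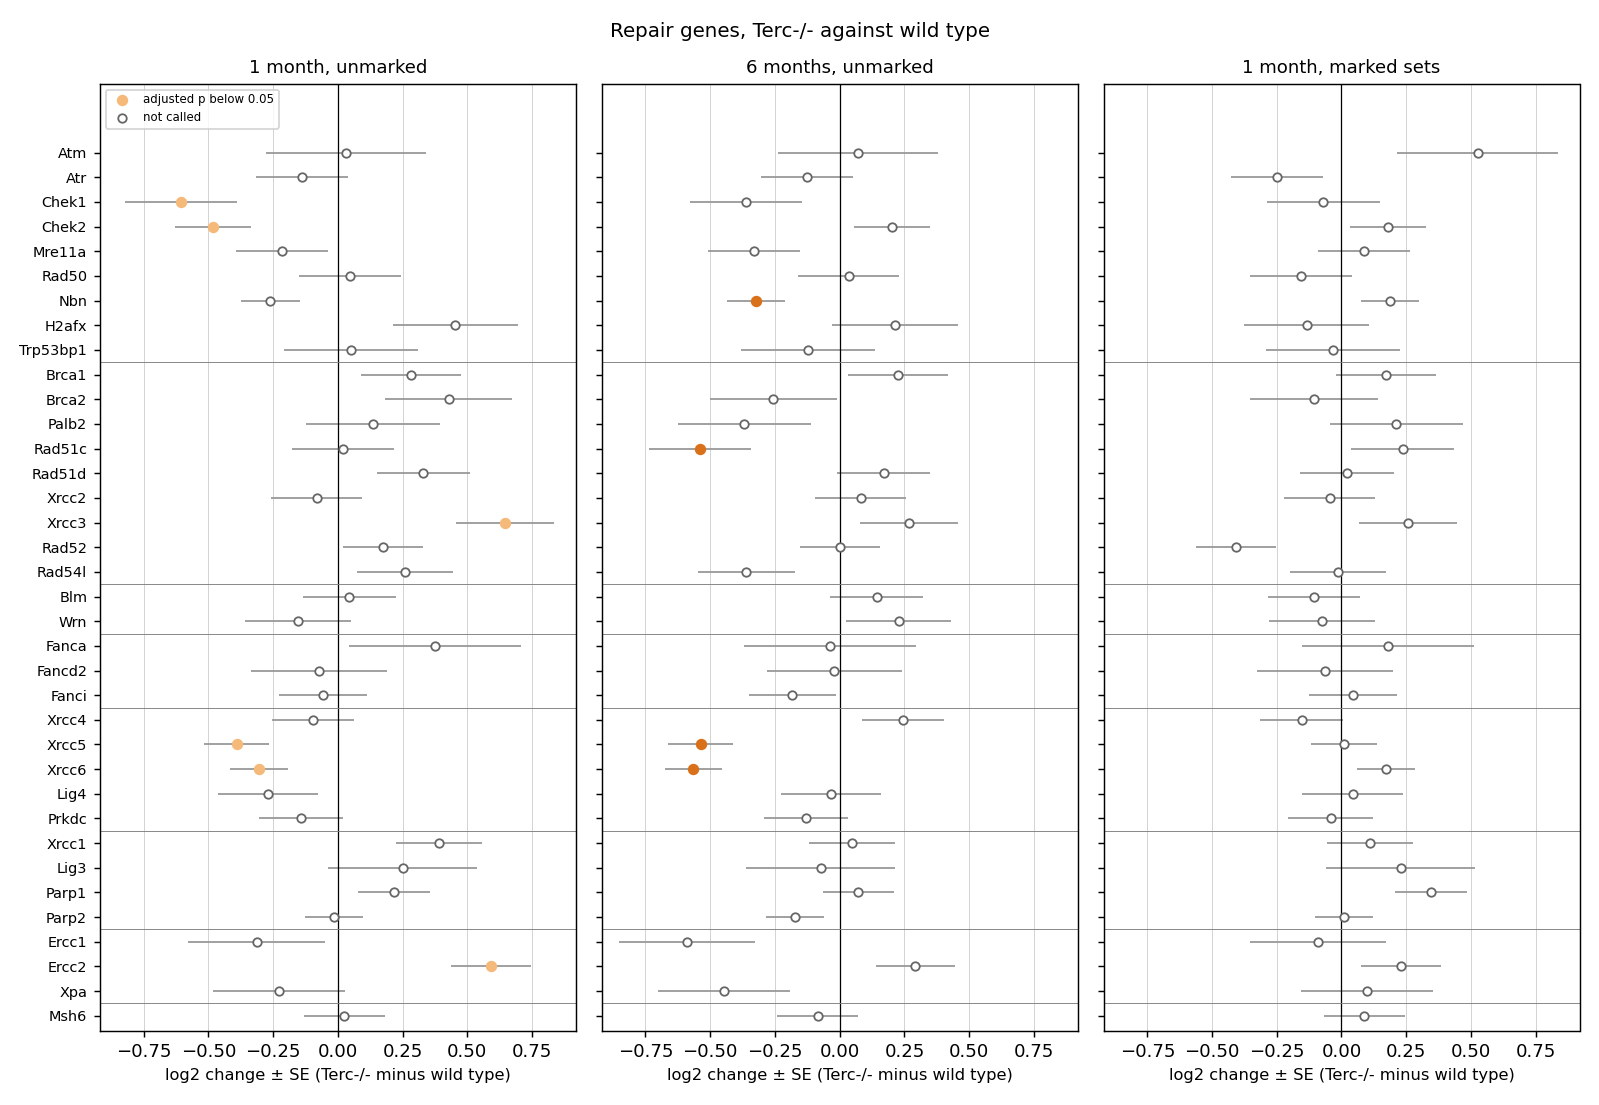
Log2 change ± SE (Terc-/- minus wild type) of the 36 tested repair genes in unmarked large-cell libraries at 1 month (left) and 6 months (middle) and in marked libraries at 1 month (right); filled points passed an adjusted p of 0.05. Xrcc5 and Xrcc6 lie left of 0 and are filled in both unmarked panels, and no point is filled in the marked one.

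In the marked libraries 0 members were called between 519 Terc-/- and gaiwei wild type at 1 month. Of all genes 1.59% were higher and 1.87% lower, 3.46% in all. An unadjusted p under 0.05 was reached by 2 members, Rad52 (-0.41 ± 0.15) and Parp1 (0.35 ± 0.14). With a variance for each group 1 was called, with 7.76% of all genes. Xrcc5 changed by 0.01 ± 0.13, with a 95% interval of -0.25 to 0.27, and Xrcc6 by 0.17 ± 0.11. A test of whether this genotype effect differs from that of the unmarked libraries was not run. Between 6 and 1 month in 519 Terc-/- libraries 6 members were lower and 1 higher, where 10.7% of all genes were lower and 13.2% higher, 23.9% in all. Chek2 stood at 11.04, 10.18 and 10.91 TPM at 6 and 19.22, 15.04 and 19.37 TPM at 1 month, apart, a change of -0.85 ± 0.15 (adjusted p = 0.0001934). Rad52 rose from 4.919, 4.445 and 6.008 to 9.175, 9.55 and 9.368 TPM (0.64 ± 0.15, adjusted p = 0.004347). Nbn, Parp1, Xrcc1, Rad54l and Parp2 were lower, with changes from -0.61 to -0.32. Without 1-month replicate 2, 4 members were called, and with a variance for each group 17, with 13.7% and 51.2% of all genes called. Of the proliferation list 13 of 25 genes were lower as well. The osteoclast sum was 1228 to 2142 TPM at 6 and 653.1 to 685.6 TPM at 1 month, with 2 of 8 genes higher, and the stromal sum 271.1 to 446.8 against 79.51 to 97.44 TPM, with 4 of 7 higher. The macrophage sum was 40910 to 47830 against 61750 to 71610 TPM, with 3 of 8 genes lower and 1 higher; the part of the 4 lists was not tested.

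Xrcc5 separated marked from unmarked libraries altogether. Its level was 1.4 to 3.141 TPM in the 9 marked and 5.384 to 13.25 TPM in the 21 unmarked libraries, and that of Xrcc6 7.572 to 12.25 and 13.48 to 27.38 TPM. These were the only 2 members with every marked library below every unmarked one as deposited, as were 6.09% of all tested genes. On the common scale Xrcc5 was lower in all 3 comparisons of marked with unmarked libraries: -1.39 ± 0.13 in 1-month wild type (adjusted p = 3.866e-09), -0.99 ± 0.13 in 1-month Terc-/- (adjusted p = 1.256e-06) and -0.68 ± 0.13 in 6-month Terc-/- (adjusted p = 0.000183). Xrcc6 was lower in wild type (-0.64 ± 0.11, adjusted p = 5e-05) but at -0.16 ± 0.11 and -0.21 ± 0.11 in Terc-/- did not pass.

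In 1-month wild type 8 members were lower and 3 higher in gaiwei than in unmarked libraries, where 22.1% of all genes were lower and 24.6% higher, 46.6% in all; without unmarked replicate 3, 4 members and 38.7% of all genes were called. The unmarked libraries here are those with the reversed Xist and Y-linked pattern, so that mark and sex pattern cannot be told apart. The lower ones included the kinase genes Atm (-0.77 ± 0.31), Atr (-0.53 ± 0.18) and Prkdc (-0.56 ± 0.16), with Nbn, Mre11a and Lig3. Atm stood at 0.7465, 0.6156 and 1.255 TPM in gaiwei and 1.285, 3.709 and 4.762 TPM in unmarked libraries. As deposited these groups were just apart, as they were for 60.1% of all genes, and after scaling they overlapped. In Terc-/- 5 members were lower and 1 higher at each age. Of all genes 15.2% were lower and 18.5% higher at 1 month, 33.7% in all, and 12.8% lower and 15.6% higher at 6 months, 28.4% in all. At 1 month Rad52 (-0.71 ± 0.15), Atr (-0.64 ± 0.18), Prkdc and Lig3 were lower beside Xrcc5. At 6 months H2afx was lower, with 14.16, 10.54 and 15.21 TPM in 519 and 33.05, 34.49 and 36.09 TPM in unmarked libraries (-1.03 ± 0.24, adjusted p = 0.002045), as were Chek2 (-0.65 ± 0.15), Parp1 and Xrcc1, and Wrn was higher (0.58 ± 0.20, adjusted p = 0.03352). Without replicate 4 of unmarked Terc-/- 3 members and 26.4% of all genes were called at 1 month.

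The direction of most of the few higher genes turned on the scaling. With TPM as deposited the marked comparisons gave 18, 10 and 9 lower members and 0 higher, where 59.3%, 45.1% and 34.1% of all genes were called, with the median of all genes shifted by -0.50, -0.40 and -0.27. Then Ercc2, Xrcc4 and Xrcc1 in wild type and Chek2 in 1-month Terc-/-, higher after scaling, were below 0. Wrn in 6-month Terc-/- kept its direction but was no longer called. The osteoclast markers fell with the marked label, 7 of 8, 8 of 8 and 7 of 8. The neutrophil sum was 1199 to 3296 TPM in the 9 marked and 2.994 to 202.7 TPM in the 15 unmarked large-cell libraries, with 2 of 3 tested genes higher in each comparison and Elane at 0 in all marked libraries. Stromal genes were lower, 5, 2 and 2 of 7, and of the macrophage list 5, 5 and 2 of 8 were higher and 0, 0 and 2 lower. The part of these lists was not tested, and the mark cannot be told apart from whatever else set these libraries apart.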

How the data were processed

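RNA was oligo(dT)-selected and sequenced on an Illumina NovaSeq 6000, per the labels' protocols. The authors deposited 5 tables of 45706 Ensembl genes with 1 column per library. The deposited values sum to 1e+06 in each library, so they were read as TPM; the headers name only samples. HTSeq and mm10 are named in the submitters' processing notes, neither with a version; which aligner was used is not given in the sources. GENCODE M21 gave symbols to 45143 of the IDs and not to 563. The tables hold no counts, so depth is unknown and no counting interval is given.

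Each library was scaled by a trimmed mean of log ratios to the geometric mean library (trimming 30% of the ratios and 5% of the levels from either end). The test took genes averaging 1 TPM or more across the 30 libraries, on log2(scaled TPM + 1) with limma 3.58.1 (R 4.3.3; trend and robust options), with 10 group means in 1 fit and Benjamini-Hochberg adjustment within each of the 16 contrasts; errors are SE and n is 3 libraries per group. Tables and figures used Python 3.11.15. The fit was tested on simulated data in which each gene had the same spread in every group. That test does not cover groups of unequal spread or an outlying library. Columns were assigned to samples by their names, and no 2 libraries were identical.

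The members and all lists were chosen with earlier results of these data known. Statistics are given for called members, at most the 12 with the smallest p in a contrast (Rad51c was added at 20 months), with uncalled members of the same role beside them, and for at most 4 other repair genes in each comparison of large-cell with 2-day cultures; 1 such gene at 6 months is not reported here. Alternatives were TPM without scaling, a pseudocount of 0.1, no filter, the replicate number as a block, only the compared groups in the fit, each library left out in turn and, added after seeing the data, a variance for each group and the fit without the outlying 6-month library.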

Additional observations from a re-analysis of the deposited data

Results flagged for a closer look

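The change of 9 of 36 repair genes from 2-day to large-cell cultures differed between 20-month and 6-month wild-type mice, by a test of the difference itself (limma interaction term, log2 scale, adjusted over all genes tested). Of all genes 12.5% differed in the same direction as the 9 and 12.7% in the other, 25.1% in all. Taking both directions together, the share of members called is near that of all genes, though all 9 members differed in the same direction. With a variance for each group 4 of the 9 stayed called. The difference, large-cell minus 2-day at 20 months minus the same at 6 months, was -2.36 ± 0.2629 (SE) for Rad54l, -1.393 ± 0.239 for Fanci and -1.287 ± 0.2722 for Brca1, with adjusted p of 1.263e-06, 0.0001746 and 0.001352. It was -1.273 ± 0.3417 for H2afx (adjusted p = 0.008288) and -0.7849 ± 0.1963 for Parp1 (adjusted p = 0.005165). For Palb2, Brca2, Fancd2 and Fanca it was -1.226, -1.149, -1.122 and -1.384, with adjusted p of 0.01597, 0.0181, 0.02937 and 0.03338. Each of the 9 had a more negative change at 20 months, and so had all 25 proliferation genes and both tested B-cell genes, while 5 of 7 stromal genes differed the other way. The stromal sum was 672.9 to 896.1 TPM in 2-day and 3416 to 4355 in large-cell libraries at 20 months, and 1682 to 2048 and 646.4 to 1130 at 6 months. The B-cell sum was 82.96 to 106.4 and 3.165 to 9.342 TPM at 20 months, and 2.343 to 6.514 and 7.425 to 10.75 TPM at 6 months. The part of these lists in the difference was not tested.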

How the results depend on the processing

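Of 97 member changes called, 31 stayed called under every alternative, among them 12 of the 13 in the 20-month comparison with 2-day cultures. With TPM as deposited 4 changed sign, all in marked against unmarked libraries: Chek2 in 1-month Terc-/- (-0.07525) and Xrcc4 (-0.1132), Xrcc1 (-0.1142) and Ercc2 (-0.0525) in wild type; that scaling moved the median of all genes by -0.403 and -0.498. The share of all genes called in the same setting is given in brackets below. Members called with deposited TPM were 2 (26.3%) for Terc-/- against wild type at 1 month and 1 (25.9%) at 6 months. They were 0 (6.94%) for wild-type large-cell 6 against 1 month and 4 (18.4%) for 20 against 1 month. For 519 libraries of 6 against 1 month they were 3 (16.8%), and for 2-day 20 against 6 months 3 (13.6%). For 519 against unmarked at 1 month they were 10 (45.1%), and for gaiwei against unmarked 18 (59.3%). Without the filter (shares of 25466 genes) 2 (13.5%) were called for Terc-/- at 6 months, 4 (9.33%) for 2-day 20 against 6 months and 7 (24.6%) for gaiwei. With a variance for each group the counts were 0 (3.6%) for Terc-/- at 6 months, 0 (0.27%) for large-cell 6 against 1 month and 0 (1.97%) for 20 against 6 months. They were 17 (51.2%) for 519 of 6 against 1 month, and 1 (20.1%) and 20 (56.8%) for large-cell against 2-day at 6 and 20 months. For 2-day they were 15 (40.4%) and for gaiwei 7 (44.4%). For marked Terc-/- against wild type they were 1 (7.76%) and for the difference of differentiation between ages 4 (13.6%). With only the compared groups fitted the counts were 1 (21.4%) and 0 (0.721%) for Terc-/- at 1 and 6 months. They were 0 (0.206%) for large-cell 6 against 1 month, 1 (1.26%) for 20 against 6 months and 13 (44.6%) for 519 of 6 against 1 month. For large-cell against 2-day at 6 months they were 0 (15.4%), for 2-day 14 (37%) and for gaiwei 3 (38.8%). The cause was not tested.

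Leaving out 1 library gave these lowest and highest member counts, with the share of all genes in a setting with that count in brackets. For Terc-/- they were 1 (23.2%) to 6 (33.3%) at 1 month and 2 (26.6%) to 6 (31.3%) at 6 months. They were 0 (4.62%) to 7 (34.5%) for large-cell 6 against 1 month, 3 (15.8%) to 8 (16.7%) for 20 against 1 month and 5 (18.2%) to 16 (50.8%) for 20 against 6 months. For 519 of 6 against 1 month they were 4 (13.7%) to 7 (16.9%). Large-cell against 2-day gave 6 (40.9%) to 22 (59.4%) at 6 and 12 (30.6%) to 14 (31.4%) at 20 months, and 2-day 3 (10%) to 5 (13.7%). For 519 against unmarked they were 3 (26.4%) to 5 (30.4%) at 1 and 4 (23.8%) to 5 (24%) at 6 months, and for gaiwei 4 (38.7%) to 12 (51%). The age difference gave 7 (21.1%) to 13 (24.8%) for differentiation and 0 (2.36%) to 1 (13%) for genotype. The rest gave 0, with at most 6.2% of all genes. Correlations of same-numbered deviations from the group mean ran from -0.597 to 0.328. With 2 or 3 shared numbers per comparison they cannot settle if the replicate numbers pair the libraries. With the replicate block 3 members (31.3% of all genes) were called for 519 against unmarked at 1 month and 11 (25.2%) for the age difference of differentiation. For large-cell 6 against 1 month 1 (6.85%) was called, which was then a higher and not a lower gene. In this setting 88 of the 97 calls held. Depth is unknown, so no counting error can be given for low genes such as Rad51b.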

Other observations

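Rad51b, a recombination gene below the expression minimum, stood at 3.794, 3.791 and 2.218 TPM in 20-month 2-day libraries. In the other 9 groups its mean was between 0.4912 and 1.143 TPM, and its lowest value was 0.04406 TPM.

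Replicate 2 of large-cell wild type at 6 months was not low for every repair gene. It was the highest of its group for 4 members: Ercc1 at 61.01 TPM (28.46 and 39.8 in the others), Xpa, the damage verifier of excision repair, at 22.47 (11.76 and 14.11), Xrcc1 at 16.63 (14.5 and 16.45) and Palb2 at 4.914 (4.463 and 2.872). As deposited it was the lowest for 31, and its typical gene was low as well (scaling factor 0.685 against 1.204 and 1.058 in the others).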
